A study of Mus musculus with 6 samples.

Results

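The genes described here are those of fibroblast growth factor (FGF) signalling: the numbered Fgf genes, the receptors Fgfr1 to Fgfr4 and Fgfrl1, the feedback inhibitors of the Spry and Spred families with Dusp6 and Il17rd, and the ETS factors Etv4 and Etv5. They were chosen by gene symbol through a rule that uses no measured value, though it was proposed with earlier results of these data known, and it found 38 of the 19938 genes that had a probe set of their own. Mouse embryos at embryonic day 13.5 gave the stomach RNA that was hybridised to 6 Affymetrix arrays, 3 of wild type embryos and 3 of embryos of the genotype Nkx3.2Cre;R26-SmoM2, called SmoM2 here. SmoM2 is a form of the hedgehog transducer Smoothened that signals without ligand. It stands at the Rosa26 locus and is switched on by Cre, whose expression follows Nkx3-2, a mesenchymal gene of the stomach, so it is restricted to cells that expressed this Cre or descend from them. Strain, sex, litter and the number of embryos behind each array are not given in the labels, and the p-values therefore rest on the spread between these arrays, which may be partly technical.

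FGF ligands are secreted, bind heparan sulfate outside the cell and activate receptor tyrosine kinases, which signal through RAS and the kinase ERK. The same cascade switches on its own inhibitors, so transcripts of Spry genes, Dusp6, Etv4 and Etv5 are widely read as a sign of FGF and ERK activity. In the embryonic gut, Fgf10 from the mesenchyme acts on the epithelium through Fgfr2, while Fgf9 from the epithelium acts on the mesenchyme. The comparison asked whether transcripts of this pathway differed when hedgehog signalling was activated in the stomach mesenchyme.

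None of the 38 genes passed the threshold of an adjusted p of 0.05 (limma, Benjamini-Hochberg over all 19938 genes), where 0.983% of all genes did (196 genes). At an unadjusted p under 0.05 there were 2 of the 38, Fgf5 and Fgf14, against 10.5% of all genes. The groups did not overlap in 5 of the 38 (Fgf5, Fgf14, Fgfr1, Fgfr4 and Spred3), or 13.2%, against 15.7% of all genes, so neither share was above that of the array as a whole. The differences (SmoM2 minus wild type) ran from -0.24 for Fgf14 to 0.35 for Fgf5 on the log2 scale, with a median of -0.02 beside 0.00 over all genes. Of the 38, 17 were positive and 21 negative.

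The precision behind these values sets what they can exclude. Moderated standard errors (SE) ran from 0.06 to 0.12. The 95% interval of the difference was not adjusted for the number of genes. It lay inside -0.5 to 0.5 for 37 of the 38 genes and inside -1 to 1, a doubling in either direction, for all 38. Of all 19938 genes, 18890 and 19852 had intervals inside these bounds, so such narrow intervals are not particular to the FGF genes. For the 8 dim genes described below an actual change would be compressed, so their intervals exclude less. The same can hold for genes not far above them in signal, such as Fgf20 and Fgf17. Fgf5 was the exception at the narrower bound, with an upper limit of 0.53. The smallest differences among the 196 genes that passed were 0.35 upward and -0.36 downward.

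**Figure D1:**
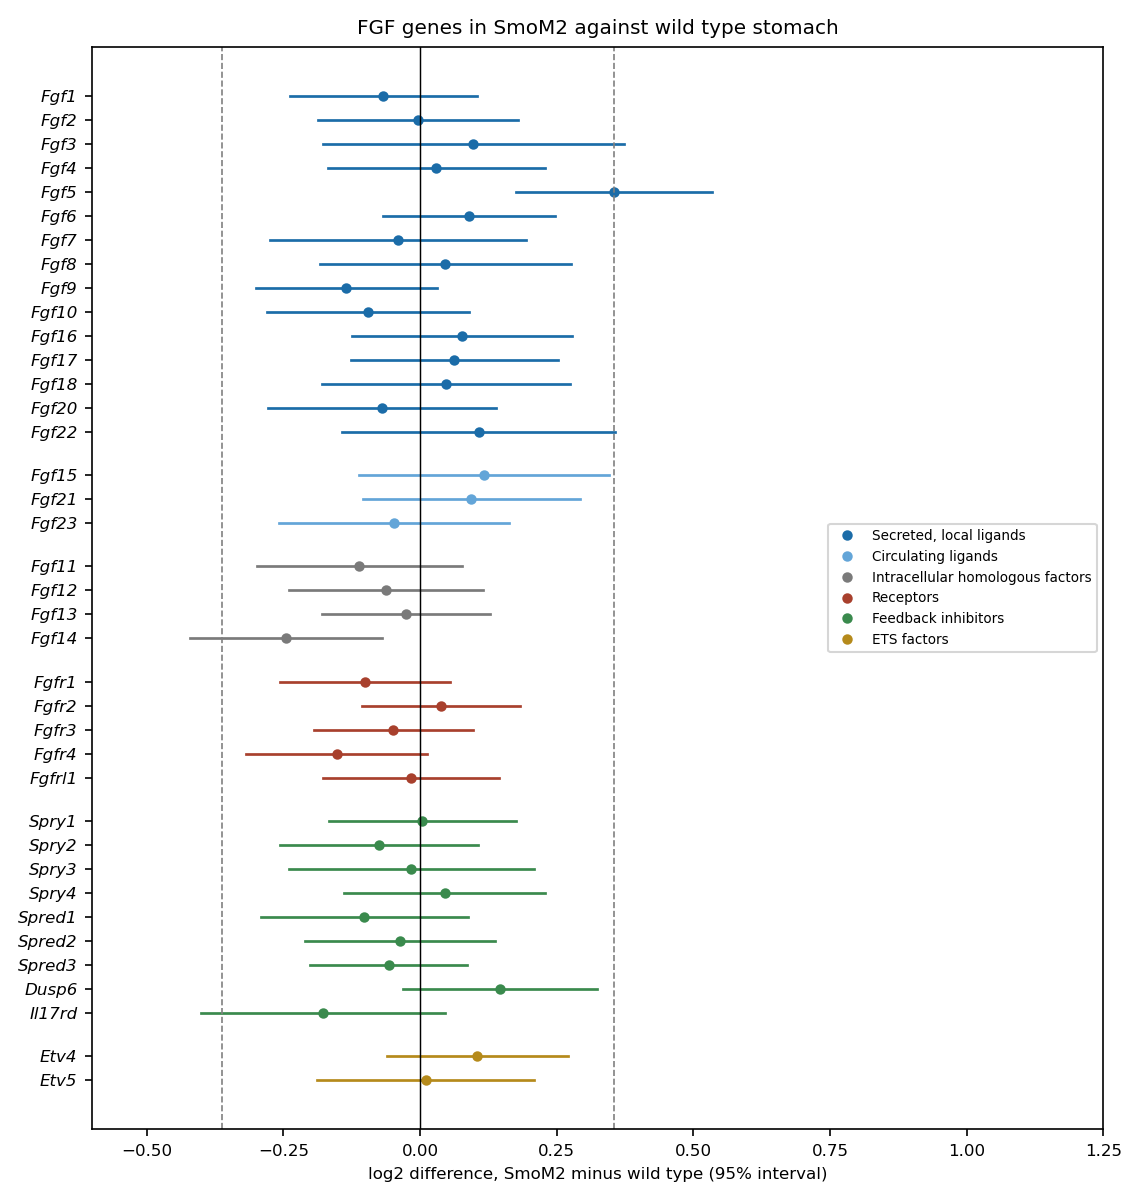
Log2 difference between SmoM2 and wild type (x axis, points) with its 95% interval (lines) for each of the 38 FGF genes (y axis), coloured by role, with dashed lines at the smallest called differences of any gene, 0.35 and -0.36. The intervals of 36 genes cross 0, and those of Fgf5 and Fgf14 do not.

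The 250 bases before the annotated start of the genes with the largest positive and the largest negative difference are shown because they are where a match to the binding motif of Gli proteins, the transcription factors of the hedgehog pathway, would be looked for first. The sequences are from RefSeq on build GRCm38.p6, written 5′ to 3′ along the gene, with Fgf5 at chr5:98253934-98254183 on the plus strand and Fgf14 at chr14:124192547-124192796 on the minus strand. Capitals mark the letters CCACCCA in Fgf5, read on the opposite strand, and GACCACCC in Fgf14, read along the gene.
Fgf5: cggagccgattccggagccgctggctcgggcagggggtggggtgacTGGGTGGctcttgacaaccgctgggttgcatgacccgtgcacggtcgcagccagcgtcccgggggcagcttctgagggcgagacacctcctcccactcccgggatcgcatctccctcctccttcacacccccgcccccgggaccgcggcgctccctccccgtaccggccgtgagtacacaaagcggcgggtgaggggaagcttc
Fgf14: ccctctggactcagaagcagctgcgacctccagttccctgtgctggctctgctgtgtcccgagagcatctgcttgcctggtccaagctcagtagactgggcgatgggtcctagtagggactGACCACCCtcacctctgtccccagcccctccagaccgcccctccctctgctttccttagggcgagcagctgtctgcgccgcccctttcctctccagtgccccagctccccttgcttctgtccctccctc

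The letters searched were the Gli motif GACCACCCA and its first 8 and last 7 letters, which overlap within it, on both strands. Of the 38 genes 28 had at least 1 such window in the table used, with 36 windows among them. The FGF genes are counted by gene and the background by window, so these shares are in unlike units. The whole motif stood in 0 of the 28 and in 0.225% of all 32851 windows of the same length. GACCACCC stood in 1 of the 28, Fgf14, and in 0.703% of all windows. CCACCCA stood in 2 of the 28, Fgf5 and Etv5, and in 8.11% of all windows. A match describes the letters only.

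Signals between probe sets are not comparable as amounts of RNA, so each gene was also set against a reference of dim probe sets. The 1178 olfactory and vomeronasal receptor genes, which the stomach is not known to express, had a median of 6.27 and a 95th percentile of 8.05 for the mean log2 signal over the 6 arrays. Of the FGF genes 30 lay above that percentile, as did 14138 of all 19938 genes. The other 8 FGF genes (Fgf1, Fgf2, Fgf6, Fgf7, Fgf12, Fgf14, Fgf16 and Fgf21) did not. All 5 receptors, all 9 feedback inhibitors and both ETS factors were among the 30, and so were 10 of the 15 secreted local ligands. For a gene inside that range, a low transcript level and a weak probe set cannot be told apart, and an actual change would be compressed. The percentile is a reference and not a call of detection. Several ligands lay not far above it, such as Fgf20 (8.43), Fgf17 (8.50), Fgf4 (8.55) and Fgf23 (8.55), and the same limit can hold for them.

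Among the secreted local ligands, Fgf5, best known as the signal that ends the growth phase of hair, had the largest difference. Its log2 signals were 9.10, 8.85 and 8.94 in wild type 1 to 3 and 9.37, 9.29 and 9.30 in SmoM2 1 to 3. Every SmoM2 array was above every wild type array, and the distance between the nearest arrays of the groups (9.10 and 9.29) was smaller than the range within wild type. The difference was 0.35 (SE 0.08, 1.28-fold, 95% interval 0.18 to 0.53, limma adjusted p = 0.0903). It passed when the test was limited to genes above the median of all probe sets (adjusted p = 0.0462, 26 of the 38 genes kept).

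Fgf9, the ligand that the gut epithelium and mesothelium send to the mesenchyme, stood at 10.10, 10.08 and 9.98 in wild type and 9.85, 10.01 and 9.89 in SmoM2. SmoM2 2 lay above wild type 3, so the groups overlapped by that pair of arrays (difference -0.13, SE 0.07, 95% interval -0.30 to 0.03, adjusted p = 0.602). Fgf10, the mesenchymal ligand for epithelial Fgfr2, stood at 10.38, 10.51 and 10.29 in wild type and 10.19, 10.35 and 10.35 in SmoM2. Those groups overlapped as well (difference -0.10, SE 0.08, 95% interval -0.28 to 0.09, adjusted p = 0.786). For Fgf10 the interval thus leaves room for a level down to 0.823 times and up to 1.06 times that of wild type.

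The other 12 local ligands had differences between -0.07 and 0.11 with overlapping groups. Fgf7, which like Fgf10 acts on epithelial Fgfr2, was at 7.41 ± 0.12 in wild type and 7.37 ± 0.19 in SmoM2 (log2 signal, SD, n = 3), inside the range of the receptor genes. Fgf8 and Fgf18, from a subfamily with roles in limb and skeletal growth, both had a difference of 0.05 (SE 0.10). Fgf16 and Fgf20, the closest relatives of Fgf9, had differences of 0.08 and -0.07. Fgf22, a relative of Fgf7 and Fgf10, had the largest positive difference of this remainder, 0.11 (SE 0.11, adjusted p = 0.822), with SmoM2 1 the highest of the 6 arrays at 9.46. SmoM2 1 was also the highest array for Fgf3, with 8.96, 8.47 and 8.68 in SmoM2 1 to 3 and the largest SE of the 38 genes, 0.12.

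The 3 circulating ligands act on distant organs with Klotho proteins as coreceptors. Fgf15, the intestinal hormone that restrains bile acid synthesis, stood at 8.49, 8.49 and 8.69 in wild type and 8.83, 8.48 and 8.72 in SmoM2. Fgf21, a metabolic hormone, stood at 7.87, 7.85 and 8.01 in wild type and 8.13, 7.85 and 8.03 in SmoM2. In both genes the lowest of the 6 arrays was SmoM2 2 and the highest SmoM2 1, so the SmoM2 arrays spanned the wild type ones. Their differences were 0.12 (SE 0.10, adjusted p = 0.788) and 0.09 (SE 0.09, adjusted p = 0.805). Fgf23, which lowers blood phosphate, had a difference of -0.05.

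Fgf11, Fgf12, Fgf13 and Fgf14 encode intracellular homologous factors, which are not secreted and bind voltage-gated sodium channels of neurons and other excitable cells. All 4 differences were negative. Fgf14 stood at 8.27, 8.03 and 8.09 in wild type and at 7.91, 7.88 and 7.86 in SmoM2, with every SmoM2 array below every wild type array. The difference was -0.24 (SE 0.08, 95% interval -0.42 to -0.07, adjusted p = 0.261), and it was -0.18 without wild type 1, the highest array (adjusted p = 0.825). Fgf11 stood at 8.88, 9.08 and 8.82 against 8.75, 8.82 and 8.88, with overlapping groups (difference -0.11, SE 0.08, adjusted p = 0.735). Fgf12 and Fgf13 had differences of -0.06 and -0.03.

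Beside these genes, 5 of 17 measured markers of enteric neurons and glia were lower in SmoM2 (0.657% of all genes were), 0 were higher and 12 did not pass. The summed linear signal of that list was 17960 to 20545 in the wild type arrays and 14583 to 16698 in the SmoM2 arrays, without overlap. Its largest changes were in Dcx, a microtubule protein of young neurons (log2 difference -1.07), and in the neurofilament subunits Nefm (-1.01) and Nefl (-0.84), with Dbh, which makes noradrenaline, at -0.81 (adjusted p from 0.00244 to 0.0286). The list was mixed, with 4 positive differences of 17, the largest in Ednrb, an endothelin receptor of neural crest cells (0.32, adjusted p = 0.277), and with Sox10, a factor of neural crest and glia, at 0.11; these 2 were named after their values were seen. The part of this list in the values of Fgf11 to Fgf14 was not tested. In RNA from a whole tissue, fewer cells of a type and less RNA per cell cannot be told apart.

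**Figure D2:**
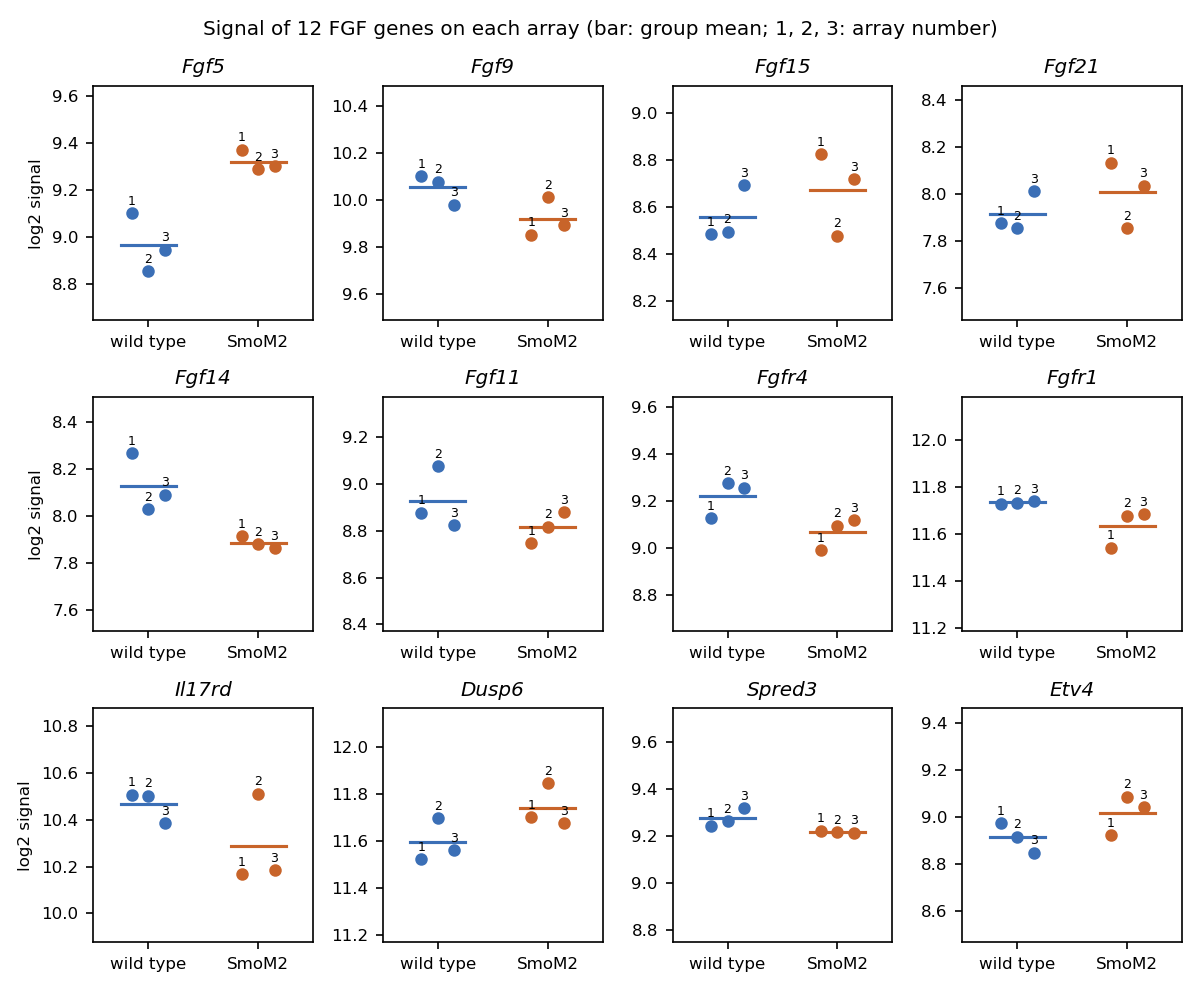
Log2 signal (y axis) of 12 FGF genes on each wild type array (blue) and SmoM2 array (orange), numbered by replicate, with bars at the group means; every panel spans 1 log2 unit. The groups are separate in Fgf5, Fgf14, Fgfr4, Fgfr1 and Spred3 and overlap in the other 7.

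The 4 receptor tyrosine kinases and Fgfrl1, a receptor without the kinase, had differences from -0.15 to 0.04. Fgfr4 stood at 9.13, 9.28 and 9.26 in wild type and 8.99, 9.09 and 9.12 in SmoM2. The groups did not overlap, with wild type 1 (9.13) just above SmoM2 3 (9.12), and the difference was -0.15 (SE 0.07, 95% interval -0.32 to 0.01, adjusted p = 0.528). Fgfr1, the main receptor of mesenchymal cells, stood at 11.73, 11.73 and 11.74 in wild type and 11.54, 11.68 and 11.68 in SmoM2. It too had no overlap, by a margin set by the narrow spread of the wild type arrays (SD 0.01), and a difference of -0.10 (SE 0.07, adjusted p = 0.708).

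Fgfr2 stood at 11.21, 11.16 and 11.19 in wild type and 11.19, 11.24 and 11.25 in SmoM2, a difference of 0.04 (SE 0.06, 95% interval -0.11 to 0.18, adjusted p = 0.905). Each gene was read as a whole, so the epithelial and mesenchymal splice forms of Fgfr2, which bind different ligands, were not separated. Fgfr3 and Fgfrl1 had differences of -0.05 and -0.02. Epithelial markers were lower beside these values. Of 22 such markers 9 were lower, 0 higher and 13 did not pass, where 0.657% of all genes were lower. The summed linear signal of the list was 28166 to 30961 in wild type and 20336 to 22563 in SmoM2. Esrp1, an epithelial splicing factor that acts on Fgfr2 transcripts, had a difference of -0.68, the tight junction protein Cldn6 -0.66, E-cadherin (Cdh1) -0.58 and the keratin Krt18 -0.57 (adjusted p from 0.0111 to 0.0245). Of 12 mesothelial markers 4 were lower and 0 higher, with Igfbp5 at -0.78, Bnc1 at -0.72, Wt1 at -0.52 and Krt7 at -0.40 (adjusted p from 0.00549 to 0.0250). The part of these markers in the values of the receptors and of Fgf9 was not tested.

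The feedback inhibitors and ETS factors showed no call in 11 genes. Of these, only the Spry genes, Dusp6, Etv4 and Etv5 were named above as a sign of pathway activity. Dusp6, a phosphatase that switches off ERK, stood at 11.52, 11.70 and 11.56 in wild type and 11.70, 11.85 and 11.68 in SmoM2. Its difference was 0.15 (SE 0.08, 95% interval -0.03 to 0.32, adjusted p = 0.594), with wild type 2 inside the range of SmoM2. Il17rd, a membrane protein that restrains FGF signalling, was on the other side, at 10.51, 10.50 and 10.39 in wild type and 10.17, 10.51 and 10.19 in SmoM2. There SmoM2 1 and 3 were below all wild type arrays and SmoM2 2 was above them (difference -0.18, SE 0.10, adjusted p = 0.613), and a second probe set gave -0.22 (adjusted p = 0.471 with each probe set tested on its own).

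The Spry genes encode inhibitors that act between receptor and RAS. Their differences were 0.00 for Spry1, -0.07 for Spry2, -0.02 for Spry3 and 0.04 for Spry4, and the 95% intervals of these 4 ran at the widest from -0.26 to 0.23. The probe set of Spry3 is numbered among probe sets of other chromosomes, as is the brighter one of Etv5, so the loci they report are uncertain. The Spred genes, inhibitors that work with the RAS regulator Nf1, had differences of -0.10, -0.04 and -0.06. Spred3 had separate groups, at 9.24, 9.26 and 9.32 in wild type and 9.22, 9.21 and 9.21 in SmoM2.

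Etv4 and Etv5 are transcription factors induced by FGF. Etv4 stood at 8.97, 8.92 and 8.85 in wild type and 8.92, 9.09 and 9.04 in SmoM2 (difference 0.10, SE 0.07, adjusted p = 0.713). Etv5 stood at 10.45, 10.47 and 10.47 in wild type and 10.30, 10.63 and 10.50 in SmoM2, so the SmoM2 arrays spread on both sides of a tight wild type group (SD 0.17 in SmoM2 and 0.01 in wild type). The difference was 0.01 (SE 0.09, adjusted p = 0.986). Its other probe set, numbered among those of the chromosome of Etv5, gave 9.62, 9.67 and 9.78 in wild type and 9.51, 9.91 and 9.78 in SmoM2, a difference of 0.04 (SE 0.10).

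The SmoM2 arrays differed among themselves in the feedback and ETS genes. SmoM2 1 was the lowest of the 3 SmoM2 arrays in 9 of the 11 feedback and ETS genes, and SmoM2 2 was the highest in 7. Their median deviations from the group mean were -0.12 and 0.09. Among the 14138 genes above the 95th percentile of the receptor genes, SmoM2 1 was lowest in 55.6% and SmoM2 2 highest in 46.2%, with median deviations of -0.05 and 0.03, so the same direction ran through bright genes in general. The olfactory and vomeronasal receptor genes ran the opposite way, with SmoM2 1 at 0.11 and SmoM2 2 at -0.09. The 8 dim FGF genes did as well, with SmoM2 1 at 0.05 and SmoM2 2 at -0.07, and with wild type 3 at 0.10 and wild type 2 at -0.08. The other 30 FGF genes were split, with SmoM2 1 the highest SmoM2 array in 11 and the lowest in 16. Among these 30, Fgf3, Fgf5, Fgf8, Fgf13, Fgf15, Fgf18, Fgf22 and Fgf23 had SmoM2 1 highest and SmoM2 2 lowest, the direction of the receptor genes. No label names a batch for these arrays. With the median signal of the receptor genes as a covariate, an alternative chosen after seeing the data, Fgf5 passed (difference 0.35, adjusted p = 0.0252) and the other 37 genes did not.

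**Figure D3:**
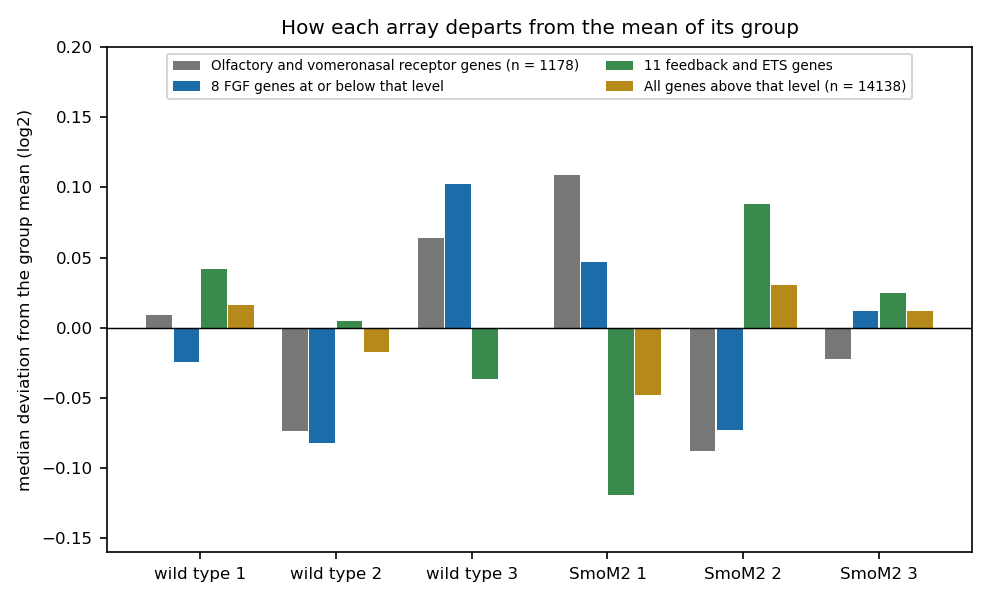
Median deviation of each array from the mean of its own group (y axis, log2 units) for the olfactory and vomeronasal receptor genes, the 8 FGF genes at or below their 95th percentile, the 11 feedback and ETS genes, and all genes above that percentile. On SmoM2 1 the receptor genes are up (0.11) and the feedback and ETS genes down (-0.12), and on SmoM2 2 the signs are turned.

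Sex-linked transcripts also differed between arrays. Xist was at 7.11 in wild type 1 and between 11.43 and 12.37 in the other 5 arrays. The Y-linked gene Eif2s3y was at 10.40, 10.09 and 8.81 in wild type and between 8.58 and 9.19 in SmoM2. Wild type 2 thus had a high Xist signal (11.94) beside a high Eif2s3y signal (10.09). Whether that array holds RNA of embryos of both sexes was not tested. All 3 Y-linked genes were lower on average in SmoM2 (Eif2s3y -0.86, Kdm5d -0.71, Uty -0.87, limma adjusted p from 0.147 to 0.402). The groups did not overlap in Uty. Sex of the embryos and genotype thus cannot be fully told apart on these arrays. Fgf13, Fgf16 and Spry3 are X-linked, though the locus that the probe set of Spry3 reports is uncertain. With Y-linked signal as covariate 0 of the 38 genes passed (1 at an unadjusted p under 0.05), Fgf14 had a difference of -0.18, and Fgf5 had a difference of 0.40 (adjusted p = 0.496). That fit called 22 genes in all.

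Other genes of the pathway were read from lists of coreceptors and heparan sulfate genes, of intracellular transducers and of ERK targets. Of 27 measured coreceptors and heparan sulfate genes, 1 was lower in SmoM2 and 0 were higher, where 0.657% and 0.326% of all genes were, and the median difference was -0.05. At an unadjusted p under 0.05 there were 7 of the 27 (25.9%, 1 higher and 6 lower) against 10.5% of all genes, and the groups did not overlap in 10 (37.0%) against 15.7%. The gene that fell was Flrt2, a membrane protein with leucine-rich repeats, of a family that binds FGF receptors and guidance receptors. It stood at 11.51, 11.35 and 11.40 in wild type and 10.67, 10.80 and 10.77 in SmoM2. The groups were far apart for this data set, with a difference of -0.67 (SE 0.07, 1.59-fold lower, adjusted p = 0.00466), and with Y-linked signal as covariate the difference was -0.61 (adjusted p = 0.107).

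Sulf1, an enzyme that removes sulfate groups from heparan sulfate and so alters ligand binding, stood at 10.81, 11.08 and 10.83 in wild type and 10.14, 10.54 and 10.33 in SmoM2 (difference -0.57, SE 0.11, adjusted p = 0.0572). Sdc2, a cell surface heparan sulfate proteoglycan, stood at 10.92, 11.07 and 11.03 in wild type and 11.30, 11.45 and 11.55 in SmoM2 (difference 0.42, SE 0.08, adjusted p = 0.0544). Neither passed, though in both the groups did not overlap. Sdc2 was named after its value was seen, as was Klb, the coreceptor of Fgf15 and Fgf21, whose mean was 8.18 ± 0.13 over the wild type arrays and 7.97 ± 0.07 over the SmoM2 arrays (adjusted p = 0.402).

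Of 23 measured transducers 0 passed, with 3 at an unadjusted p under 0.05 (13.0% against 10.5% of all genes), 4 with groups that did not overlap (17.4% against 15.7%) and a median difference of -0.05. The largest differences were in Nf1, which inactivates RAS (-0.38, adjusted p = 0.212), and in Pik3r1, a regulatory subunit of the lipid kinase PI3K (-0.24, adjusted p = 0.299). Of 20 other ERK targets 0 passed, with 4 at an unadjusted p under 0.05 (20% against 10.5% of all genes), 7 with groups that did not overlap (35% against 15.7%) and a median difference of 0.08. The largest were in Myc, a growth regulator (0.36, adjusted p = 0.135), and the ephrin receptor Epha4 (-0.32, adjusted p = 0.140). Myc stood at 11.43, 11.43 and 11.46 in wild type and 11.59, 11.92 and 11.89 in SmoM2, with all SmoM2 arrays higher. Without SmoM2 1 or SmoM2 2 the 3 lists together had 2 genes past the threshold in place of 1.

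Hedgehog output on the same arrays checked the labels. Of 7 measured hedgehog targets and transducers 5 were higher (Hhip, Ptch1, Foxf1, Foxf2 and Foxl1), with Hhip, a decoy for hedgehog ligands, 2.43-fold. The other members, Gli1 and Smo, had differences of 0.42 and 0.35 and did not pass (adjusted p = 0.0727 and 0.154). SmoM2 is itself a form of Smo, and whether its transcript adds to the Smo signal was not tested. Nkx3-2, which is not on that list and whose control the Cre follows, had a difference of -0.12 (adjusted p = 0.648). Of the markers of the labelled tissue, Barx1, the homeobox gene that marks stomach mesenchyme, was at 12.57 ± 0.15 in wild type and 12.60 ± 0.07 in SmoM2. Of 22 epithelial markers 21 lay above the 95th percentile of the receptor genes, as did 14138 of all 19938 genes. Of 14 smooth muscle markers 5 were higher, led by Myocd, Actg2, Myl9 and Synpo2, and 1 lower (Des, named after its value was seen). Of 14 mesenchyme markers 3 were higher (Foxf2, Foxl1 and Foxf1) and 1 lower (Col1a2). Over all genes 0.326% were higher and 0.657% lower. No member passed among 12 endothelial (Kdr -0.36, Tek -0.32), 10 erythroid (Hbb-bh1 -0.38, Alas2 -0.37), 12 leukocyte (Pf4 -0.48, Lyz2 -0.39) and 11 liver markers (Ambp -0.63, Alb 0.61). At an unadjusted limma p under 0.05 there were 41.7%, 50%, 58.3% and 27.3% of these lists, against 10.5% of all genes. The groups did not overlap in 58.3%, 30%, 50% and 27.3%, against 15.7%. Negative differences were found in all 12 endothelial, 9 of 10 erythroid, all 12 leukocyte and 3 of 11 liver markers. Alb spread widely within each group (SE of the difference 0.48). It stood at 10.31, 11.62 and 12.31 in wild type and 11.19, 12.58 and 12.31 in SmoM2. Of 10 pancreas markers 2 were lower (Cpa1 -0.98, Gcg -0.86), while 5 of the 10 had a positive difference and the median was 0.01.

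**Figure D4:**
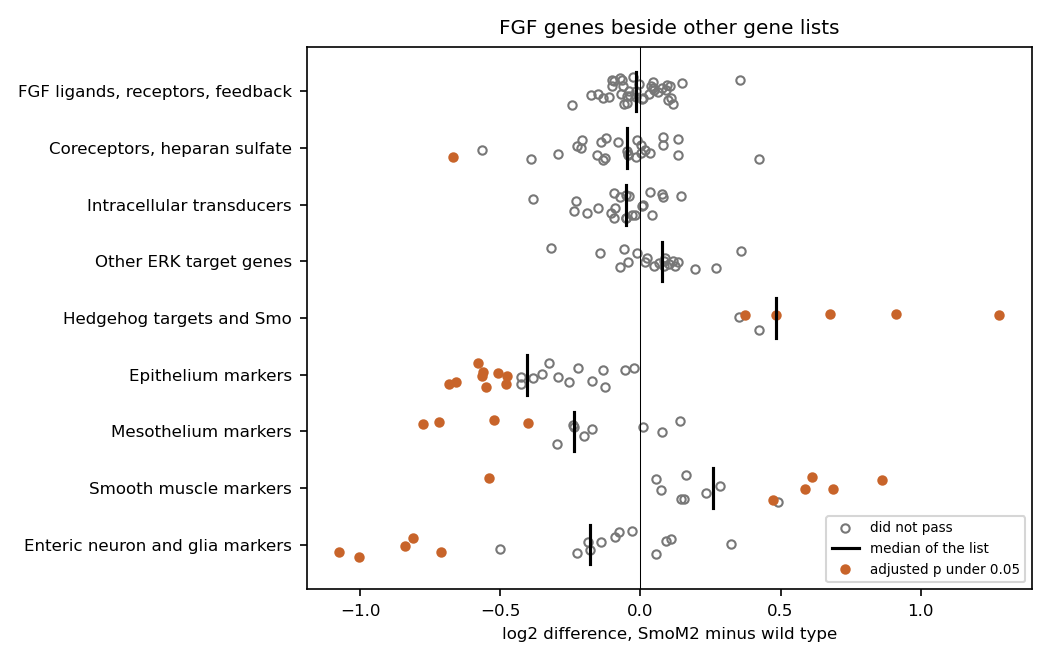
Log2 difference between SmoM2 and wild type (x axis) for the genes of each list (y axis), filled where the adjusted p was under 0.05, with a bar at the median of the list and points jittered vertically. The FGF genes lie between -0.24 and 0.35 with none filled, beside 1 filled gene among the coreceptors and 9 among the epithelial markers.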

How the data were processed

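The authors deposited a log2 signal for each of 35556 probe sets. The submitters' processing notes name affy and RMA, a method that corrects background, normalizes by quantiles and summarises probes. Neither version is given in the sources used here. Such values hide a change in total RNA and compress dim signals. The number of arrays limits precision, and detection was not called.

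Gene names came from the platform annotation, in which 21789 probe sets had 1 symbol, 1621 had several and 12146 are unnamed here. Each gene took its probe set with the highest mean over 6 arrays. Of the 38 FGF genes 35 had 1 probe set. Groups were compared by limma 3.58.1 (R 4.3.3; lmFit and eBayes), with Benjamini-Hochberg adjustment over 19938 genes, moderated SE and 95% intervals, and no filter on dim genes. The procedure was tested on simulated data with independent noise for each gene and array. Deviations of whole arrays, as described above, were not simulated, so the test does not cover them. An exact permutation test of 3 against 3 cannot go below a two-sided p of 0.1. Genes shown array by array were those past the threshold, those whose groups did not overlap and the 2 with the largest difference in each role, with others, such as Fgf10 and Fgfr2, chosen after their values were seen. From the other lists, up to 4 genes past the threshold, or the 2 with the largest difference were named. The members and the lists were chosen with earlier results of these data known. Alternatives covered the block, left-out arrays, dim genes, probe set choice, scaling, variance moderation, array weights and sex-linked signal. Promoter sequences came from RefSeq, build GRCm38.p6.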

Additional observations from a re-analysis of the deposited data

How the results depend on the processing

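Over 20 alternatives none of the 38 FGF genes passed in 15. With the replicate number as a block (replicate block) 1 passed, Fgf5 (adjusted p = 0.0161), as it did among genes above the median of all probe sets and with the median signal of the receptor genes as a covariate. Array weights gave 4, but their estimate did not converge (weights from 0.327 to 6.02), and a gene by gene estimate, added after seeing the data, gave 2. Without each array in turn the count stayed at 0. The calls over all genes, 196, were 698 with the block, 297 above the median, 120 with centring on the 75th percentile, 336 with an intensity trend, 4110 and 1854 with the array weights, 22 with the Y-linked signal, 706 with the receptor covariate and 32 to 247 without each array. The other pathway lists, with 1 call, had 7 with the block, 3 above the median, 3 with repeated quantile normalization, 3 with centring on the median, 3 with the trend, 22 and 13 with the array weights, 0 with the Y-linked signal, 6 with the receptor covariate and 1 to 2 without each array. The causes of these shifts were not tested.

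No label says that the replicate numbers pair the arrays, and correlations over 3 arrays a group cannot settle it. Deviations from the group means correlated at -0.10, 0.52 and 0.06 for arrays 1, 2 and 3 over 19938 genes, and SmoM2 1 correlated best with wild type 3 (0.52). The sign of the difference was the same in every alternative that gave a value for 17 of the 38 genes, Fgf5, Fgf14 and Dusp6 among them, and turned at least once for 21, all of them uncalled.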
